A study of Arabidopsis thaliana with 24 samples.

Results

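Nano-titania (TiO2, a metal oxide particle that acts as a photocatalyst) was set against plain water in the rosette leaves of Col-0, a wild-type laboratory accession of Arabidopsis thaliana. The comparison uses 6 of the study's 24 Affymetrix ATH1 arrays, chosen by their titles: 3 of leaves of titania-treated plants and 3 of leaves of plants given millipore water. Titania plants received 500 mg/L of the particle in a KCl solution that the sample descriptions put at 0.1 mM and the treatment protocol at 0.1 M. Leaves given that KCl solution without particles (3 arrays), leaves given nano-ceria (CeO2) at 500 mg/L in millipore water (3 arrays) and roots of all 4 treatments stand beside the comparison where a result calls for them. All plants were 29 days old, grew in potting medium, and were watered from above with the suspension or solution on days 0, 4 and 17. Titania and water leaves differ in the particle and in the salt, and no label ties their arrays to 1 experiment, so particle, salt and experiment cannot be told apart here. Replicates are labelled biological, with no word on how many plants made up a sample. The p-values therefore measure the spread between arrays. In the leaf tests that spread is pooled over all 12 leaf arrays, so KCl and CeO2 arrays also set the standard errors. The median SD between arrays, in log2 signal, was 0.18 for titania, 0.24 for water, 0.33 for KCl and 0.38 for CeO2 leaves.

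Rosette leaves are dominated by photosynthetic cells, and the photosynthetic machinery is built from subunits encoded in the plastid genome together with subunits and assembly factors encoded in the nucleus. Plants meeting oxidative, osmotic or heat stress commonly draw on glutathione transferases, flavonoids, dehydrins and small heat shock proteins, which conjugate toxic compounds, absorb light and radicals, protect membranes and hold unfolded proteins. Potassium chloride alone adds ions to the root zone, which is why the leaves given KCl are described beside the titania leaves.

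RNA signal is given throughout as the deposited log2 value, so a difference of 1 is a 2-fold difference in signal. The 6 arrays had medians within the 4.96 to 5.14 found over the 12 leaf arrays. The leaf label held: the nuclear leaf markers RCA (RuBisCO activase) and PSAN (a photosystem I subunit), 2 of 6 fixed leaf markers with a named probe set, had a summed linear signal of 15600 to 22900 in titania leaves and 17100 to 19600 in water leaves, against 107 to 298 in water roots. Of 7 root markers, 4 had a named probe set (PYK10, JAL22, JAL33 and JAL34), and their summed linear signal was 326, 54.5 and 115 on titania arrays 1, 2 and 3, against 69.3, 83 and 145 on the water arrays and 5150 to 8730 in water roots. Titania array 1 was the highest of the 12 leaf arrays in this sum. None of the 11 flower and bolting genes listed had a named probe set, so that tissue was not checked.

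The 3 titania arrays were not equally far apart. Arrays 2 and 3 correlated at r = 0.99 over all probe sets, arrays 1 and 3 at 0.969 and arrays 1 and 2 at 0.939, whereas the water arrays correlated with each other at 0.956 to 0.968. Array 3 lay between the other titania arrays almost wherever the 3 values differed widely. Its share of middle values was 55.6% over all probe sets, against at most 52.1% for any other array of the series. Over the 887 probe sets whose 3 titania values spanned more than 2, array 3 was the middle value in 98.3%, and the highest such share for any of the other arrays of the series was 74.2%. On the linear scale array 3 was fitted by 0.19 times array 1 plus 0.81 times array 2 with r = 0.998 and a median absolute residual of 0.111 on the log2 scale. In the 91 probe sets where array 1 exceeded array 2 by more than 4, array 3 was below array 1 by a median of 1.95, with quartiles of 2.12 and 1.77. The cause was not tested. Array 3 was thus largely given by arrays 1 and 2. Counts of small p-values are given with and without it for titania against water, titania against CeO2, leaf against root and several lists.

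**Figure D1:**
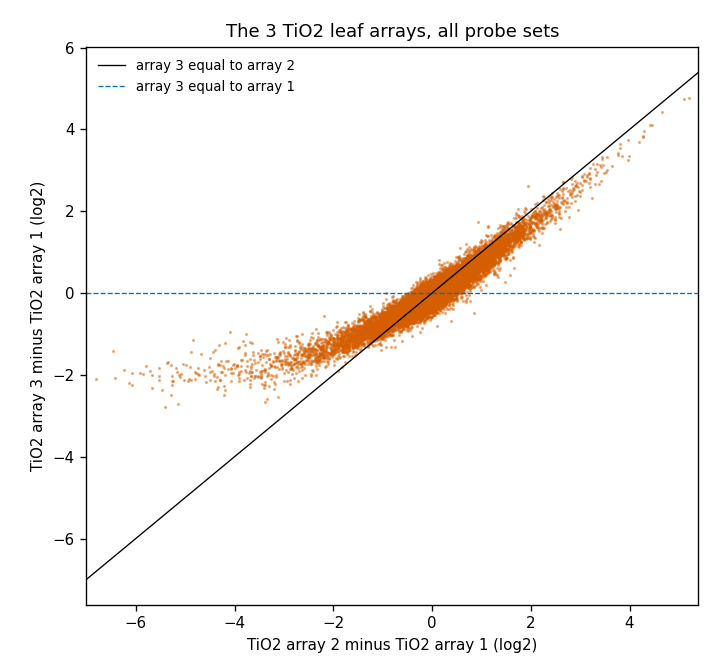
Each point is 1 of 22746 probe sets, plotted by titania array 2 minus array 1 (x axis, log2) and array 3 minus array 1 (y axis, log2). Points run along a curve between the solid line, where array 3 equals array 2, and the dashed line, where array 3 equals array 1, and flatten near -2 at the left.

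No transcript passed in titania against water leaves. Of 22746 probe sets, 0 (0%) had an adjusted p under 0.05 by limma with Benjamini-Hochberg adjustment, and the lowest adjusted p was 0.362. Fitted with all 24 arrays, 3 probe sets (0.0132%) passed, none of them with a listed gene. Array weights, under which titania array 3 counted 12.9 and array 1 0.662, gave 2893 passing. An unadjusted p under 0.05 was found for 1799 probe sets (7.91%), where 1137.3 (5%) would be the chance share. Of these, 982 (4.32%) were higher and 817 (3.59%) lower in titania leaves. With each array centred on its median the split was 803 higher and 982 lower, so the excess of higher calls depended on the scaling. Without titania array 3 the count was 834 (3.67%), without titania array 2 it was 850 (3.74%), and without water array 2 it was 764 (3.36%), all under the chance share. With arrays 2 and 3 averaged to 1 array, an alternative chosen after seeing the data, it was 799 (3.51%).

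The differences were nonetheless sometimes large. The median difference, titania minus water, was -0.018, and 90% of probe sets lay between -0.86 and 0.92. A difference above 1 in either direction was measured for 1816 probe sets, of which 1092 had titania and water arrays that did not overlap, and 220 differed by more than 2. Over all probe sets the arrays did not overlap in 4782 (21%), with titania above in 2292 (10.1%) and titania below in 2490 (10.9%). The half-width of the 95% interval of a difference had a median of 0.63, so a typical transcript would have needed a difference of this size for its interval to leave out 0, before any adjustment.

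**Figure D2:**
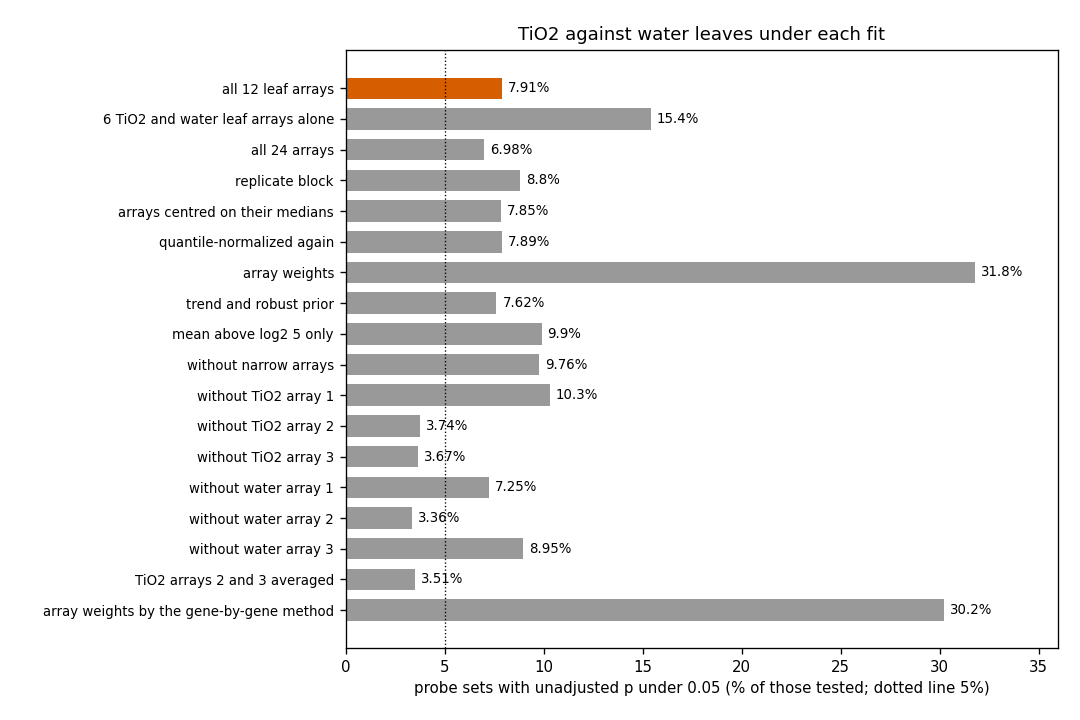
Bars give the percentage of tested probe sets with an unadjusted p under 0.05 in titania against water leaves for each fit, with the fit to all 12 leaf arrays in orange and a dotted line at 5%. The share was 7.91% with all 12 arrays, 3.36% to 3.74% in the 4 fits without titania array 2 or 3, without water array 2, or with titania arrays 2 and 3 averaged, and 31.8% and 30.2% with array weights.

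Among the 10 named genes with the smallest p that were higher in titania leaves, the first was GSTU27, a tau class glutathione transferase of the kind that conjugates toxic compounds to glutathione. It had 7.85, 8.28 and 8.02 on titania arrays 1, 2 and 3, against 6.38, 7.05 and 6.81 on water arrays. The groups did not overlap, and the difference was 1.31 ± 0.25 (SE, limma unadjusted p = 0.000361, adjusted p = 0.604). KCl leaves had 8.10 ± 0.38 and CeO2 leaves 7.43 ± 0.28 (SD, n = 3 each), so the titania level was within 0.1 of the KCl level. Its adjusted p, like that of the other genes in this group, did not pass.

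AT2G41250, a haloacid dehalogenase-like hydrolase, showed the largest difference of these 10. Its values were 9.50, 8.75 and 8.76 in titania leaves, against 5.82, 6.47 and 7.21 in water leaves, with 8.35 ± 0.57 in KCl leaves and 7.14 ± 0.84 in CeO2 leaves. Titania lay above water on every array, by 2.50 ± 0.49 (SE). AT2G16365, known as PCH1 and a partner of the light receptor phytochrome B, had 5.35, 6.47 and 6.31 in titania leaves, against 4.08, 4.21 and 4.24 in water leaves. The water arrays were tightly grouped and the lowest titania array was more than 1 above them, with a mean difference of 1.86 ± 0.42 (SE).

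AT1G75280, an isoflavone reductase-like protein, was the gene of these 10 whose titania level stood farthest from both the KCl and the CeO2 leaves. It read 9.64, 9.30 and 9.39 in titania leaves, against 8.14, 8.17 and 7.74 in water leaves, and KCl leaves averaged 8.21 ± 0.23 and CeO2 leaves 7.50 ± 0.68. The difference from water was 1.43 ± 0.30 (SE). AT5G24210, a lipase-type hydrolase, had 9.21, 9.37 and 9.31 in titania leaves, against 7.45, 7.80 and 8.04 in water leaves, a difference of 1.53 ± 0.35 (SE). AT1G72900, which carries the TIR domain of immune receptors, had 8.82, 8.28 and 8.36 in titania leaves, against 7.31, 7.92 and 7.36 in water leaves. The other 4 were AT5G19250, a GPI-anchored protein of the cell surface (0.87 higher), AT1G49840 (1.21), AT1G66940 (1.07) and AT5G11500 (1.38).

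The 10 named genes of smallest p that were lower in titania leaves began with AT3G01560, at 6.72, 6.70 and 6.60 in titania leaves, against 8.00, 7.77 and 7.90 in water leaves. The groups stood apart by more than 1 at their nearest arrays, and the difference of -1.21 ± 0.20 (SE) had a limma adjusted p of 0.471, the lowest among the named genes. The plastid gene ycf4, which encodes an assembly factor of photosystem I, came next. It had 7.84, 8.18 and 7.56 in titania leaves, against 9.41, 9.06 and 9.14 in water leaves, with 7.62 ± 0.21 in KCl leaves and 8.27 ± 0.37 in CeO2 leaves (SD, n = 3 each). Both other treated groups were thus also below the water arrays for ycf4.

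AT1G27930, the arabinogalactan methyltransferase AGM1, had 8.57, 8.74 and 8.71 in titania leaves, against 10.004, 9.79 and 9.40 in water leaves, a difference of -1.06 ± 0.22 (SE). AT2G34300, a putative methyltransferase, had 5.66, 5.48 and 5.62 in titania leaves, against 7.51, 7.27 and 6.99 in water leaves, a difference of -1.67 ± 0.34 (SE). It was lower still in KCl leaves (4.91 ± 0.54). STIPL1, a spliceosome factor that affects the pace of the circadian clock, had 5.14, 4.84 and 4.88 in titania leaves, against 6.36, 6.15 and 5.94 in water leaves.

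The C2-domain protein AT1G07310 had the smallest difference of these 10 (-0.76) and the closest water arrays, at 7.76, 7.75 and 7.73, against 7.001, 6.86 and 7.10 in titania leaves. AT5G28150 had the largest difference of the 10 (-1.90). The others were AT3G11420 (-1.42), AT5G17910 (-1.08) and AT5G25070 (-1.04). AT5G25070 was below 5 in both groups, where the arrays measure little signal.

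All 20 genes were chosen by their difference from water, so it is part of the choice that the arrays did not overlap in any of them. Titania, KCl and CeO2 leaves are set against the same water arrays, and their levels are therefore given side by side. AT5G19250 averaged 11.20 ± 0.16 in titania leaves, 10.24 ± 0.20 in KCl leaves, 10.55 ± 0.23 in CeO2 leaves and 10.34 ± 0.20 in water leaves (SD, n = 3 each). For AT1G66940 the levels were 7.68 ± 0.22, 6.57 ± 0.29, 6.74 ± 0.11 and 6.62 ± 0.44 in titania, KCl, CeO2 and water leaves. These are the exceptions among the 20 genes: in the other 18, titania leaves averaged closer to KCl leaves than to water leaves, which a choice by the difference from water favours. Without titania array 3 all 20 kept their sign and an unadjusted p under 0.05, and the lowest adjusted p among them was 1.

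**Figure D3:**
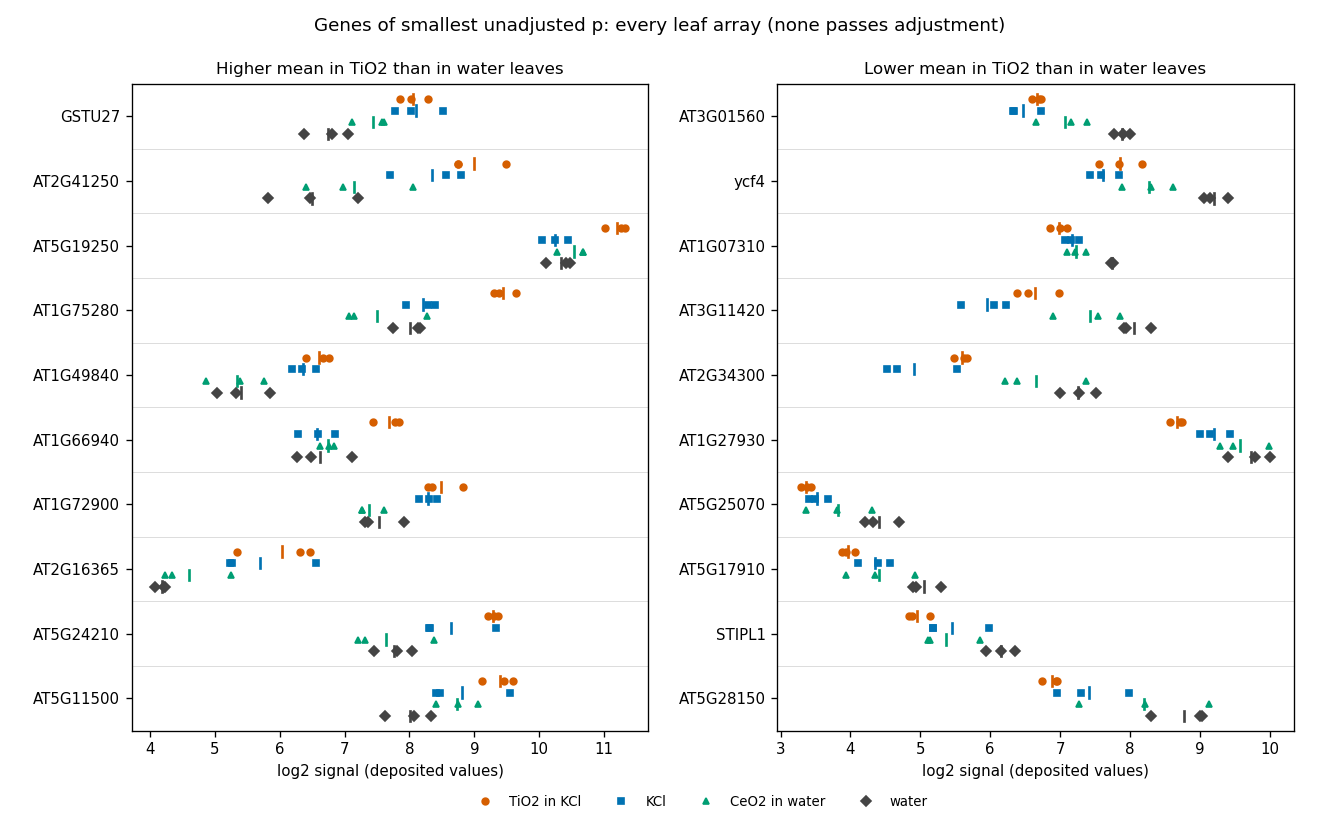
Points give the log2 signal on each leaf array for the 10 named genes of smallest p in each direction, with titania uppermost in each row, then KCl, CeO2 and water, and short bars at group means. Titania and water arrays do not overlap in any of the 20 rows, and the titania mean is closer to the KCl mean than to the water mean in 18 of them.

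Photosynthesis genes encoded in the plastid were mostly lower in titania leaves, none past adjustment. Those encoded in the nucleus were mostly higher on a list drawn up after the probe sets of smallest p had been seen. None of these passed adjustment either. On the nuclear photosystem and antenna list, written by locus, 4 were higher and 2 lower. In whole leaves, fewer cells of a type and less RNA per cell cannot be told apart. Of 33 plastid-encoded genes of the photosystems, the cytochrome b6f complex, the ATP synthase and RuBisCO, 30 were lower and 3 higher, with a median difference of -0.47 against -0.018 over all probe sets. In 15 the titania arrays all lay below the water arrays, where 10.9% of all probe sets did so, and 7 had an unadjusted p under 0.05 in this direction, where 3.59% did. Without titania array 3 the latter count was 5, without water array 3 it was also 5, and the median over the fits that left out 1 array ran from -0.72 (without water array 2) to -0.41 (without water array 3).

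Subunits of the cytochrome b6f complex, which carries electrons between the photosystems, had a median difference of -0.94, with 5 of 6 lower. Its small subunit petG had the largest difference of the list. It read 4.31, 4.13 and 4.46 in titania leaves, against 7.80, 5.43 and 7.90 in water leaves, a difference of -2.74 ± 0.69 (SE, limma unadjusted p = 0.00258). Water array 2 was more than 2 below the other water arrays, and still above every titania array. KCl leaves averaged 4.42 ± 0.70 for petG and CeO2 leaves 7.07 ± 1.02 (SD, n = 3 each), so titania leaves lay with KCl leaves and CeO2 leaves with water leaves.

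ATP synthase subunits, which make ATP from the proton gradient, had a median of -1.10, with 5 of 6 lower. The catalytic-head subunit atpA had 8.50, 8.23 and 7.79 in titania leaves, against 11.79, 9.80 and 10.98 in water leaves (difference -2.68 ± 0.79, SE). For the membrane-ring subunit atpH the values were 9.40, 10.01 and 9.48 in titania leaves, against 10.89, 10.72 and 11.58 in water leaves. The stalk subunit atpF had 8.41, 8.40 and 8.20 in titania leaves, against 9.10, 8.91 and 9.31 in water leaves. These genes lie in 1 cotranscribed cluster, so they are not separate observations. In all of them the groups stood apart, and the KCl mean was also below the water mean.

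Photosystem II subunits were lower in 14 of 15 cases, with a smaller median of -0.32. Its core antenna protein psbB had 8.54, 8.80 and 8.26 in titania leaves, against 9.75, 9.79 and 10.36 in water leaves, a difference of -1.43 ± 0.38 (SE). The small subunit psbK had 10.23, 10.35 and 10.17 in titania leaves, against 11.67, 10.85 and 11.57 in water leaves. Its cotranscribed neighbour psbI differed by -0.94. The 5 photosystem I subunits were all lower with a median of -0.21, and rbcL, the large subunit of the carbon-fixing enzyme RuBisCO, differed by -0.47. Genes of the plastid NDH complex (3 higher and 7 lower of 10, median -0.23) and of the plastid ribosome and polymerase (7 higher and 12 lower of 19, median -0.19) included none with an unadjusted p under 0.05, and without titania array 1 their medians were 0.00 and 0.11. For the photosynthesis list the median was -0.23 in KCl against water leaves, -0.31 in CeO2 against water leaves and 0.27 in titania against water roots.

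The nuclear side was described with 36 genes of photosynthesis, a list drawn up by symbol after the annotation and the probe sets of smallest p had been seen. Of these, 32 were higher and 4 lower in titania leaves, with a median difference of 0.52. An unadjusted p under 0.05 was found for 6, all higher, where 4.32% of all probe sets were so, and none passed adjustment. The titania arrays all lay above the water arrays in 6 and below them in 1, where 10.1% and 10.9% of all probe sets did so. These counts turned on single arrays: 14 had such a p without titania array 1, 3 without titania array 3, 2 without titania array 2 and 1 without water array 2, while the median stayed between 0.32 and 0.80. The median level of the list was 8.70, 10.32 and 10.26 on titania arrays 1, 2 and 3, against 9.39, 8.42 and 8.89 on the water arrays, so array 1 lay within the water range and the other titania arrays above it.

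LPA66, an RNA-editing factor needed for photosystem II, had 4.83, 6.01 and 5.66 in titania leaves, against 4.29, 3.77 and 4.43 in water leaves. CaS, a calcium-binding protein of the thylakoid membrane, had 11.16, 11.99 and 11.62 in titania leaves, against 10.49, 9.67 and 10.56 in water leaves, a difference of 1.35 ± 0.44 (SE). Both groups stood apart for these genes. NdhN, a nuclear-encoded subunit of the NDH complex, had the largest difference (1.90), but titania array 1 at 8.27 lay below water array 1 at 8.35. The pentatricopeptide proteins CRR21 and CRR22, which edit transcripts of that complex, were higher by 1.53 and 0.66. On array 1 CRR21 was at 3.80, next to the highest water array at 3.79. CRR22 averaged 4.90 in titania leaves and 4.25 in water leaves, both low signals.

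Calvin cycle genes, which fix carbon, were higher in 3 of 3 cases, with a median of 0.89. SBPASE, a phosphatase that regenerates the carbon acceptor, had 10.85, 11.91 and 11.63 in titania leaves, against 10.82, 9.28 and 9.96 in water leaves, a difference of 1.44 ± 0.62 (SE), and its unadjusted limma p was 0.0936 without titania array 3. PRK, which makes that acceptor, was higher by 0.89 and RCA by 0.43. SBPASE is also 1 of the 36 nuclear genes above, so the 2 lists are not separate observations. Chlorophyll synthesis genes were higher in 5 of 6 cases with a median of 0.55, led by PORB (1.24), which reduces protochlorophyllide. None of the 6 had an unadjusted p under 0.05. Of 6 nuclear photosystem and antenna genes, 4 were higher and 2 lower, with a median of 0.04 that turned to -0.06 without titania array 3. In KCl against water leaves these medians were -0.38 for the Calvin cycle, -1.05 for chlorophyll synthesis and -0.37 for the photosystem and antenna genes.

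**Figure D4:**
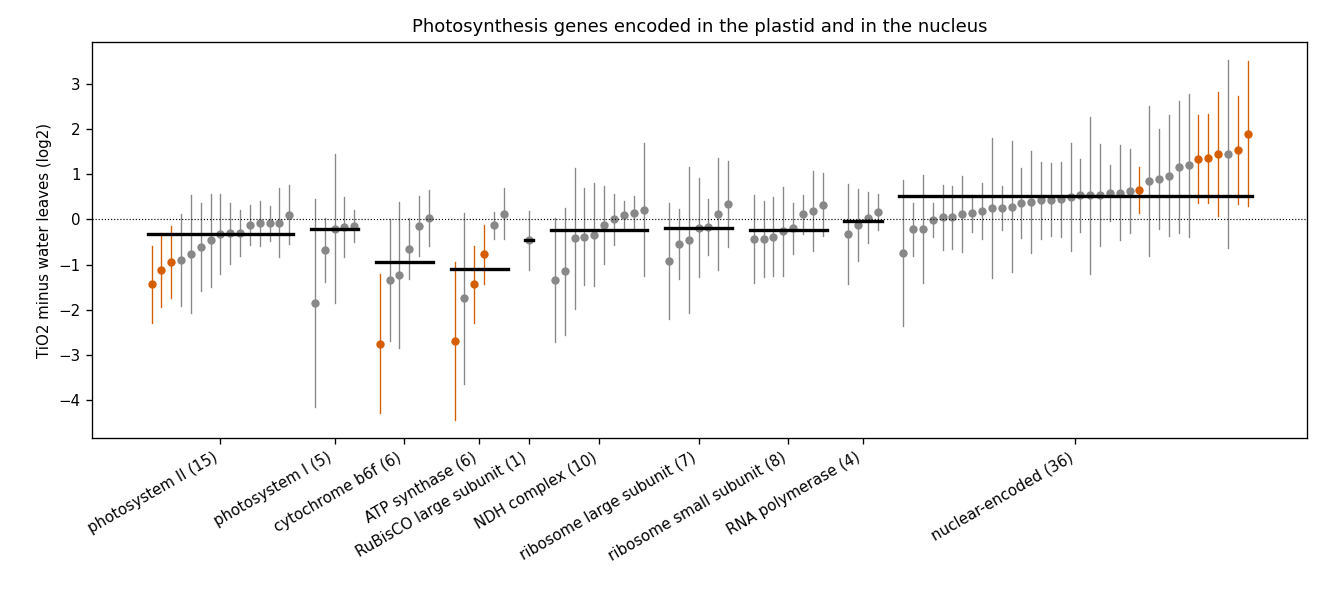
Points give titania minus water leaves (log2) for each photosynthesis or plastid gene with its 95% interval, grouped by complex with the number of genes, and thick bars give group medians. Orange marks an unadjusted p under 0.05; plastid-encoded groups have medians from -1.10 to -0.04 and the nuclear-encoded group 0.52.

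Flavonoid and anthocyanin genes, which make light-absorbing pigments, were higher in titania leaves in 6 of 7 cases, with the highest median of the lists of 3 or more genes (1.47). UGT78D2, which attaches glucose to flavonols and anthocyanins, had 8.70, 8.89 and 8.71 in titania leaves, against 7.42, 7.06 and 7.42 in water leaves, a difference of 1.47 ± 0.45 (SE, limma unadjusted p = 0.00806). CHIL, a chalcone isomerase-like protein of the early pathway, had 7.24, 7.65 and 7.54 in titania leaves, against 5.73, 5.31 and 6.03 in water leaves. In both, every titania array was above every water array, as in 10.1% of all probe sets. They were the 2 members with an unadjusted p under 0.05, where 4.32% of all probe sets were higher at such a p. Neither passed adjustment. The count of the list was 2 without titania array 3, 3 without titania array 2 and 1 without water array 2.

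The late pathway gene DFR, which makes the precursors of anthocyanins, was spread over the titania arrays at 8.57, 3.16 and 5.80, against 4.82, 3.80 and 3.36 in water leaves. Array 1 was therefore far above water and array 2 below all water arrays. Without titania array 1 the median of the list was 0.49. KCl leaves had 10.79, 6.52 and 8.89 for DFR, and the list median was 1.83 in KCl against water leaves, -1.84 in titania against KCl leaves and 0.26 in CeO2 against water leaves.

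Enzymes that conjugate or oxidise small molecules were mixed. Of 9 glutathione transferases 6 were higher and 3 lower (median 0.18). Beside GSTU27, GSTU22 differed by -0.84 and GSTU25 by -0.59, both with arrays apart. Both were below 5 on every titania and water array except GSTU22 on water array 2 (5.42), so they were measured where the arrays hold little signal. The 47 UDP-glycosyltransferases were a list drawn up by symbol, like those of the cytochromes P450 and the other symbol families below. The list shares UGT78D2 with the flavonoid genes above. Of its members 16 were higher and 31 lower. At an unadjusted p under 0.05 there were 4 in each direction, where 4.32% of all probe sets were higher and 3.59% lower. Over the fits that left out 1 array the counts of the list ran from 2 (without titania array 2) to 5 (without water array 3) higher. They ran from 1 (without water array 1 or 2) to 7 (without titania array 1) lower. UGT76E12 had the largest difference, at 4.94, 3.47 and 3.54 in titania leaves, against 8.83, 8.45 and 5.17 in water leaves. KCl leaves (3.94 ± 0.99, SD, n = 3) lay with titania leaves. UGT76B1, which glucosylates defence signals, differed by -1.50, and UGT71C5, which glucosylates abscisic acid, by -0.90, whereas UGT73C1, at 3.97, 4.39 and 4.09 in titania leaves, against 3.44, 3.51 and 3.64 in water leaves, differed by 0.63 at levels below 5 in both groups.

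Cytochromes P450 were higher in 17 of 26 cases (median 0.28). CYP71B22 had 7.34, 6.83 and 6.96 in titania leaves, against 5.77, 5.46 and 5.79 in water leaves, and CYP71B28 was higher by 0.98. Among 4 glucosinolate genes the glucosyltransferase AT2G31790 was higher by 1.13 and the other 3 differed by -0.14 to 0.10. The 4 antioxidant enzymes, which remove peroxides or recycle glutathione, were all higher by 0.05 (the ascorbate peroxidase SAPX) to 0.43 (the glutathione reductase GR), with no unadjusted p under 0.05. Without titania array 3, 2 of them were higher and 2 lower, and the median of the list ran from -0.02 without titania array 2 to 0.63 without titania array 1. Of 3 peroxidase symbols, which include the peroxiredoxin PRXIIF, PRXR1 was higher by 1.14.

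Genes of the cold and abscisic acid response were lower in titania leaves in 5 of 5 cases, with a median of -1.03. The list median was -2.43 in KCl against water leaves, 1.23 in titania against KCl leaves and -0.20 in CeO2 against water leaves. The dehydrin COR47 had 11.11, 11.19 and 11.08 in titania leaves, against 12.39, 12.06 and 12.03 in water leaves, a difference of -1.03 ± 0.44 (SE). LTI30, another dehydrin, had 7.29, 8.50 and 8.24 in titania leaves, against 10.75, 11.54 and 8.61 in water leaves. For LEA4-5, a protective protein of drying tissue, the values were 4.48, 4.41 and 4.79 in titania leaves, against 6.74, 6.43 and 4.76 in water leaves, so the groups overlapped at water array 3. These 3 had unadjusted p-values of 0.0419, 0.0471 and 0.0472 by limma, where 3.59% of all probe sets were lower at a p under 0.05. Without titania array 3 the count was 0, and it was also 0 without titania array 1 or 2 or water array 1 or 2. COR15A and COR15B, which protect chloroplast membranes, were low on titania array 1 alone (7.68 and 7.07), against 9.98 to 11.78 and 8.63 to 10.75 in water leaves. Titania arrays 2 and 3 read 12.34 and 12.10 for COR15A, above every water array, and 10.83 and 10.45 for COR15B. The lower means of both genes thus came from array 1.

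Heat shock genes were lower in 7 of 7 cases, with a median of -0.60. The list median was -0.27 in KCl against water leaves and 0.03 in CeO2 against water leaves. The small heat shock protein AT2G29500 had 5.71, 4.39 and 4.79 in titania leaves, against 8.58, 9.98 and 6.20 in water leaves, a difference of -3.29 ± 1.29 (SE). KCl leaves averaged 5.56 ± 0.73 for AT2G29500 and CeO2 leaves 7.98 ± 2.80 (SD, n = 3 each). HSA32, needed for memory of heat stress, had 4.97, 5.07 and 4.58 in titania leaves, against 5.30, 5.79 and 5.34 in water leaves. The groups stood apart for these and for AT5G37670 and ATHSP22.0, both small heat shock proteins, where titania lay below water in 10.9% of all probe sets. ATHSP22.0 was below 5 in both groups. An unadjusted p under 0.05 held for 2 of the 7, where 3.59% of all probe sets were lower at such a p. The count of the list was 0 without titania array 3 and 0 without water array 2.

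In roots these genes had higher means with titania, but no probe set passed by limma in titania against water roots (0 of 22746, 0%). AT2G29500 had 9.06, 7.96 and 10.91 in titania roots, against 5.65, 3.87 and 5.08 in water roots, and HSA32 had 6.50, 6.73 and 8.13 in titania roots, against 5.83, 5.15 and 5.40 in water roots. The median root difference of the list was 2.58. The leaf difference minus the root difference, tested in 1 limma fit over all 24 arrays, was -7.73 ± 1.82 (SE, adjusted p = 0.498) for AT2G29500 and -2.26 ± 0.51 (SE, adjusted p = 0.488) for HSA32. Neither passed. The cold and abscisic acid genes also had a positive median in roots (1.13).

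Defence, touch and ageing genes gave few small p-values. The plant defensin PDF1.2, a jasmonate and ethylene marker, had 8.51, 9.45 and 9.16 in titania leaves, against 9.36, 11.80 and 12.99 in water leaves. Water array 1 lay within the titania range, and the near-identical PDF1.2b and the thionin THI2.1 were lower by 1.17 and 0.25. Of the salicylic acid and pathogen list 2 genes had a named probe set, SAG101 (-0.79) and WRKY53 (0.23). STZ, a zinc-finger repressor that responds to touch and to salt, had 12.47, 12.18 and 12.38 in titania leaves, against 10.65, 11.33 and 11.58 in water leaves, a difference of 1.15 ± 0.40 (SE) with arrays apart. KCl leaves averaged 12.19 ± 0.77 and CeO2 leaves 11.82 ± 0.53 for STZ. The touch and rapid stress list as a whole had 5 of 7 higher (median 0.12, and -0.18 without titania array 1).

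In the calmodulin-like family, CML23 was higher by 1.44 and CML42 lower by 2.12, with 5 of 7 members lower. The 6 WRKY factors had a median of 0.08, which was -0.34 without titania array 1. Senescence and carbon starvation genes were higher in 6 of 7 cases (median 0.34). MCCB, a subunit of the enzyme that breaks down leucine, had 7.04, 7.43 and 6.998 in titania leaves, against 5.88, 5.93 and 6.88 in water leaves. Autophagy genes, by contrast, were lower in 9 of 12 cases (median -0.31), including ATG8H (-1.44), and no member had an unadjusted p under 0.05. In KCl against water leaves the autophagy median was 0.92.

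The lists nearest to the ions supplied were thinly covered. CHX20, a potassium exchanger of guard cells, was the 1 ion transport gene with a named probe set, and it differed by 0.36, with overlapping arrays. PYE, a regulator of iron deficiency, had 6.35, 5.53 and 5.81 in titania leaves, against 4.71 to 5.68 in water leaves. It was higher by 0.77 and BHLH101, another iron deficiency factor, by 0.60, and the arrays of PYE overlapped. The clock gene GI, which links day length to flowering, had 6.97, 7.70 and 7.40 in titania leaves, against 6.16, 5.71 and 7.01 in water leaves. Genes of low oxygen (1 of 5 higher, median -0.20, and 0.03 without titania array 2) and of endoplasmic reticulum stress (3 of 4 higher, median 0.41) included none with an unadjusted p under 0.05.

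Among growth and cell wall genes, all 7 tubulins, the subunits of microtubules, were higher, by 0.03 to 0.76 with a median of 0.30 and no unadjusted p under 0.05. Without water array 1 the tubulin median was 1.03 with 2 members at such a p, and without water array 2 it was 0.06. The median was 1.65 in titania against KCl leaves and -1.41 in KCl against water leaves. Core histone genes were higher in 5 of 6 cases (median 0.19). The cell wall loosening list had a median of 0.14 over 9 genes (-0.25 without water array 3), expansins -0.06 over 18, with EXLA2 at -1.02, and xyloglucan and cellulose-modifying enzymes -0.10 over 24. Sugar transporters of the SWEET family had a median of 0.05 over 14 genes. Within it SWEET13, a sucrose exporter of the phloem, had 5.90, 7.34 and 7.06 in titania leaves, against 4.95, 5.42 and 4.995 in water leaves, and SWEET11, its partner in phloem loading, was higher by 1.02. KCl leaves had more SWEET13 signal than titania or water leaves (8.17 ± 1.16, SD, n = 3). SWEET4 had the largest difference of the family, and it was negative (-1.70, with overlapping arrays). Its values were 4.64, 6.52 and 6.18 in titania leaves, against 8.12, 8.23 and 6.10 in water leaves.

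Serine carboxypeptidase-like proteins and subtilases had a median of 0.05 over 36 genes and U-box ubiquitin ligases 0.00 over 9. Each list held 1 higher and 1 lower gene at an unadjusted p under 0.05: scpl42 (1.13) and the immune-priming protease SBT3.3 (-1.89), and PUB25 (1.28) and PUB43 (-1.74). Over all probe sets 4.32% were higher and 3.59% lower at such a p. Without titania array 3 both lists held 0 in each direction. Over 15 genes of the mitochondrial genome the median was 0.09 against water, -0.29 without titania array 1 and -0.26 without water array 1, and -1.27 in titania against KCl leaves. No gene of the cytosolic ribosome list had a named probe set.

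Of 4 reference genes used for normalisation, 1 was higher and 1 lower at an unadjusted p under 0.05, and none passed adjustment. Over all probe sets 4.32% were higher and 3.59% lower at such a p. The TIP41-like gene AT4G34270 had 7.76, 7.28 and 7.20 in titania leaves, against 6.74, 6.75 and 6.82 in water leaves, a difference of 0.64 ± 0.20 (SE). PEX4 (also called UBC21) had 9.36, 9.63 and 9.44 in titania leaves, against 9.97, 10.50 and 10.15 in water leaves, and GAPC2 was higher by 0.96. The arrays of AT4G34270 and of PEX4 did not overlap. Without titania array 3 their unadjusted limma p-values were 0.00889 and 0.0872. AT2G28390 differed by 0.15.

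**Figure D5:**
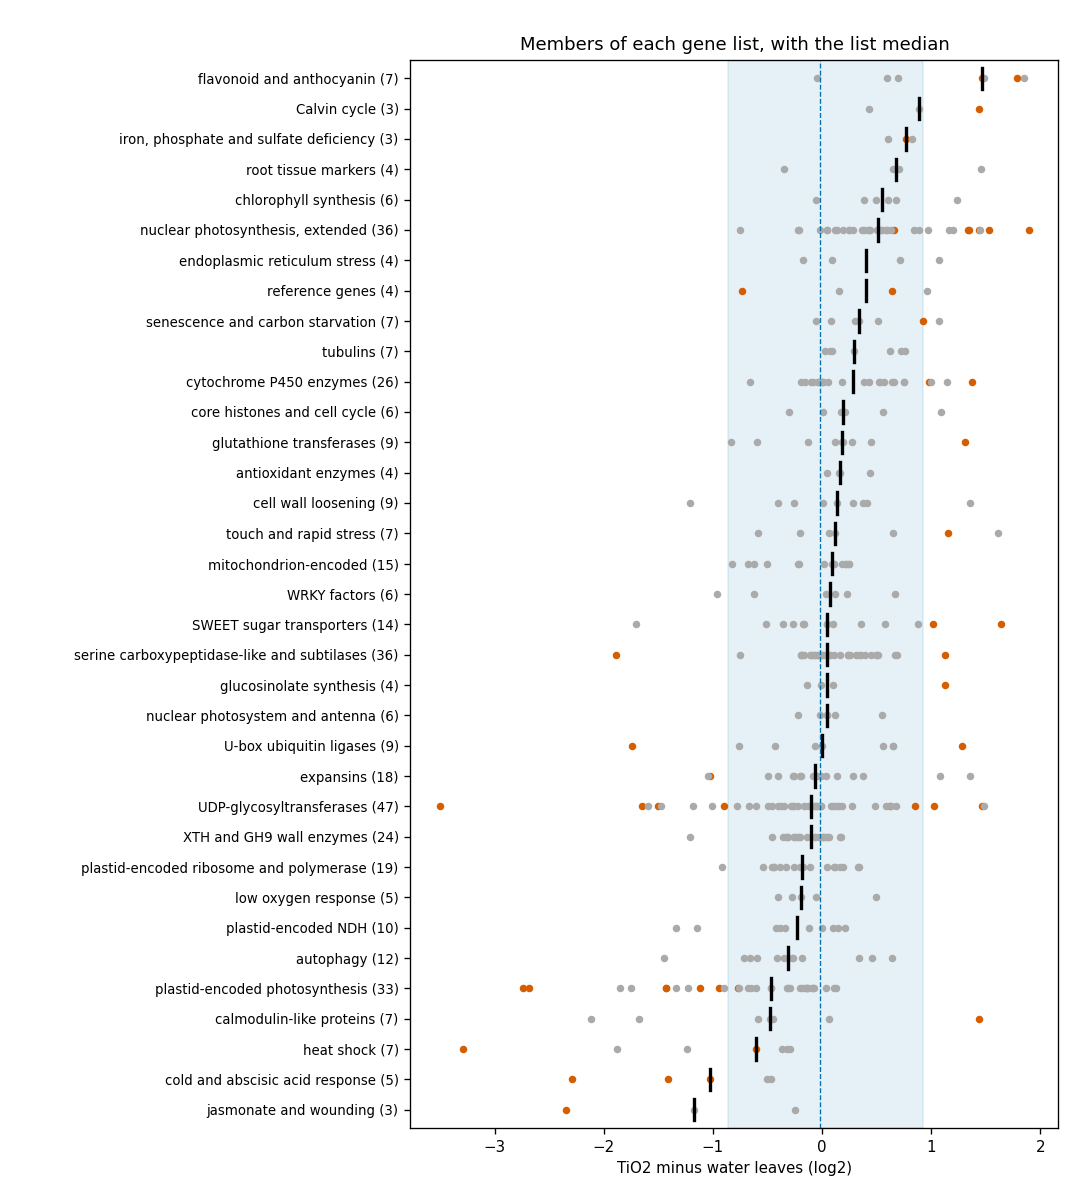
Points give titania minus water leaves (log2) for each gene of the lists with at least 3 named genes, except the peroxidase list, which is not drawn. The number of genes is in brackets, black bars are list medians and orange marks an unadjusted p under 0.05. The shaded band holds 90% of all probe sets (-0.86 to 0.92); list medians run from -1.17 for jasmonate and wounding to 1.47 for flavonoids.

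Across all probe sets the titania mean was nearest to the water mean in 10016 (44%), to the KCl mean in 6645 (29.2%) and to the CeO2 mean in 6085 (26.8%). The standard deviation of differences over probe sets was 0.56 for titania against water, 0.66 for titania against KCl, 0.65 for KCl against water and 0.36 for CeO2 against water. The comparisons share arrays, and the median SD between arrays was 0.24 in water, 0.33 in KCl and 0.38 in CeO2 leaves. Group means are thus not equally precise, and these values stand side by side without a test. By limma, 5 probe sets (0.022%) passed in titania against KCl leaves, 43 (0.189%) in KCl against water leaves and 0 (0%) in CeO2 against water leaves. At an unadjusted p under 0.05 there were 3523 (15.5%), 2783 (12.2%) and 503 (2.21%) in the same order.

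Whether the titania difference departs from the ceria difference was tested as titania against CeO2 leaves, since the water arrays cancel. No probe set passed (0 of 22746, 0%), the lowest limma adjusted p was 0.45, and 2400 (10.6%) had an unadjusted p under 0.05, with 1123 (4.94%) without titania array 3. Leaving out 1 array moved this count between 1053 (4.63%, without titania array 2) and 5700 (25.1%, without CeO2 array 3), with 1292 (5.68%) and 1311 (5.76%) without CeO2 arrays 1 and 2. Of the 3 higher genes of smallest p, AT1G75280 differed by 1.95 ± 0.30 (SE), with the levels given above. AT1G61900 was higher by 1.07 and AT3G11760 by 0.98. On the lower side stood AT2G17850, a rhodanese-type sulfurtransferase, with 4.04 ± 0.69 in titania leaves, against 6.10 ± 0.61 in CeO2 leaves (SD, n = 3 each). AT2G40230, an acyltransferase, had 5.57 ± 0.61 in titania leaves, against 7.13 ± 0.25 in CeO2 leaves, and AT5G20160, a ribosomal L7Ae-type protein, was lower by 0.71.

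Whether the titania difference was particular to leaves was tested as the leaf difference minus the root difference. No probe set passed (0 of 22746, 0%), the lowest limma adjusted p was 0.198, and 1229 (5.4%) had an unadjusted p under 0.05. This count was 825 (3.63%) without titania leaf array 3, 682 (3%) without water leaf array 2 and 788 (3.46%) without titania root array 3. It was 1752 (7.7%) without titania root array 2. The named genes with the smallest p were AT5G55380, a membrane acyltransferase (0.58 in leaves and -0.70 in roots), AT1G66250, a glucanase (0.87 and -0.57), and AT1G79470, which makes a precursor of guanine nucleotides (0.61 and -0.62). On the negative side were the small heat shock protein AT1G54050 (-1.38 in leaves and 4.63 in roots), HSA32 as above, and AT5G65860 (-0.74 and 0.75).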

How the data were processed

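Signals on Affymetrix ATH1 arrays were deposited as log2 values by the authors, 1 per probe set and array, and RMA is named without a version, per the submitters' processing notes. Whether all arrays were normalized together is not given in the sources used here. Array number limits the precision. Linear models were fitted with limma 3.58.1 (R 4.3.3) to the 12 leaf arrays with 4 group means, and to all 24 arrays with 8 means for the leaf against root test. Tests were two-sided and Benjamini-Hochberg adjusted over all 22746 probe sets within each comparison, with a threshold of 0.05. The code was tested on simulated data. Python 3.11.15, pandas 2.3.3 and matplotlib 3.10.9 handled tables and plots.

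The probe annotation pointed 13513 probe sets to 1 gene and 503 to several; 8730 without a listed gene were tested and are not named. Symbols were updated through the RefSeq table of TAIR10.1 for 13436. Of 625 genes in the lists written by locus, 126 had a named probe set, and the probe set with the highest leaf mean stood for a gene. Named genes are the 10 of smallest p in each direction, 3 in each direction in the other comparisons, up to 4 members of each list by smallest p, and the reference genes. Members with an unadjusted p under 0.05 beyond those, and others given for a role, were chosen after their values were seen. The gene lists and the comparison itself were chosen with earlier results of these data known, and 10 lists drawn up by symbol were added after the probe sets of smallest p had been seen. Alternatives covered the arrays fitted, a replicate block, scaling, array weights, the variance prior, a filter on dim probe sets and each array left out. Same-numbered titania and water arrays did not deviate together (correlations of -0.109, -0.258 and 0.014), so the numbers were not taken to pair samples. No sequence is printed, since no sequence table was used here.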

Additional observations from a re-analysis of the deposited data

How the results depend on the processing

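In titania against water leaves, 0 probe sets passed with the 6 arrays alone, with the replicate block (2002 at an unadjusted p under 0.05, against 1799), after centring or renewed quantile normalization, with a trended and robust prior, without the narrow KCl and CeO2 arrays, among the 11778 probe sets with a mean above 5, and with titania arrays 2 and 3 averaged, by limma in each case. With all 24 arrays 3 passed, none with a listed gene. Array weights gave 2893 and, by the gene-by-gene method added after seeing the data, 2445. The first weighting did not converge, and titania array 3 received weights of 12.9 and 8.41, against 0.662 and 0.69 for array 1. The 6 arrays alone gave 3496 unadjusted p-values under 0.05 (15.4%). Leaving out 1 array gave 0 to 2 passing: IAA29 and AT2G27420 without titania array 1, and 1 unnamed probe set without water array 3. In titania against CeO2 leaves the range was 0 to 25 (7 without titania array 1, 25 without CeO2 array 3), and in the leaf against root test 0 to 6 (6 without titania array 1). These tests gave 0 under the replicate block and the other alternatives run; without the narrow arrays, unadjusted p-values under 0.05 numbered 1454 in the first and 1869 in the second, against 2400 and 1229. No value of the 57 named genes checked reversed; 53 and 52 of them passed under the 2 weightings. The medians of 40 lists, recomputed under these alternatives, gave 680 values, of which 13 moved by more than the spread between arrays. In 44 of the 680, from 17 lists, the sign changed, for example for the root tissue markers (0.68, and -0.35 among probe sets with a mean above 5), the salicylic acid list (-0.28, and 0.05 without titania array 2) and the mitochondrial genes (0.09, and -0.34 with array weights). Few arrays per group and dim probe sets limit what could be detected.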
